A study of Mus musculus with 2 samples.

Results

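Fatty acid oxidation, ketone body and PPAR genes were examined in mouse colon epithelial cells as a set of 35 named genes out of 22350 gene symbols listed in the files. The genes were chosen by name and sorted by function into 8 roles, which cover fatty acid activation and import, the mitochondrial oxidation spiral, auxiliary enzymes, electron transfer, ketone bodies, peroxisomes, PPAR factors and lipid handling. Each member has an entry in both libraries and a single gene identifier. There were 2 libraries, 1 labelled Wild Type and 1 labelled Pkm2-/-, both of strain C57BL/6 and both from mice given 2.5% dextran sulfate sodium, which damages the lining of the colon, for 3 days. No library from untreated mice was analysed here. The sources used here do not say how the Pkm2-/- allele was made, in which cells it acts, or the age and number of the mice. PKM2 is a splice form made from the pyruvate kinase gene Pkm.

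Long-chain fatty acids are activated to acyl-CoA by acyl-CoA synthetases, carried into mitochondria as carnitine esters and shortened there in repeated cycles of oxidation. The first step of each cycle passes its electrons to the electron transfer flavoprotein. Very long and branched chains are shortened first in peroxisomes. The nuclear receptors of the PPAR family bind fatty acids and raise transcription of many of these genes, and colonocytes are known for using the short-chain fatty acid butyrate as fuel and for making ketone bodies from it.

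Values are FPKM, fragment counts divided by transcript length and library size, so that levels can be compared between genes of different length. A fold is the plain ratio of FPKM values, and its interval is a 95% Clopper-Pearson interval on the fragments that the FPKM imply, which covers counting error only. The log2 ratio, Pkm2-/- over Wild Type, was taken after adding 1 FPKM to each value and understates differences of low genes. Counts of genes past 1.5-fold or 2-fold use this log2 ratio. With 1 library per genotype there is no replicate check and no test, so that every comparison is of these 2 libraries. The files imply about 19400000 fragments for the Wild Type and 21500000 for the Pkm2-/- library, at which a transcript of 2 kb at 1 FPKM rests on about 39 and 43 fragments. Pkm measured 281 FPKM in the Wild Type and 86.2 FPKM in the Pkm2-/- library, 3.26-fold lower, a value that covers all splice forms of the gene. In whole-tissue or whole-fraction RNA, fewer cells of a type and less RNA per cell cannot be told apart.

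The 9 members of the mitochondrial oxidation spiral stood at nearly the same level in both libraries. Acaa1b, a peroxisomal thiolase, and Angptl4, a secreted inhibitor of lipoprotein lipase, were the members past 1.5-fold by the log2 ratio. Both were lower in the Pkm2-/- library, a share of members near that of all genes. Of the 35 members, 33 had a mean of at least 1 FPKM, the level required for counting. Fabp1 and Cd36 lay under it. Of these 33, 2 were at least 2-fold lower in the Pkm2-/- library, Acaa1b and Angptl4, against 1.90% of all 12429 genes measured. Angptl4 reached the required mean only through the Wild Type library (1.89 FPKM, and 0.194 FPKM in the Pkm2-/- library), and Acaa1b passed 2-fold by little. No member was at least 2-fold higher, against 1.42% of all genes. The same 2 members were the ones at least 1.5-fold lower, against 5.29% of all genes, and none was at least 1.5-fold higher, against 4.46%. Acsl4, 1.62-fold higher by plain FPKM, fell just short of 1.5-fold by the log2 ratio with 1 FPKM added. Within 1.25-fold lay 25 of the 33 members and 72.1% of all genes. The median log2 ratio was -0.06 for the members and 0.06 for all genes. Of the 33 members, 20 had a ratio below 0, against 41.2% of all genes, and 13 had a ratio above 0, against 58.8%. The counting interval lay below equal levels for 17 members and above them for 10, against 23.4% and 38.5% of all genes. It does not include the spread between mice. It narrows as fragments rise, so these shares are not like for like. In the Wild Type 18 of the 35 members reached 50 FPKM, and Plin2, the lowest of these, stood above 88.5% of genes measured. With the median transcript length, the interval excluded equal levels for 21 members rather than 27. The summed level of all members was 1836 FPKM in the Wild Type and 1823 FPKM in the Pkm2-/- library.

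**Figure D1:**
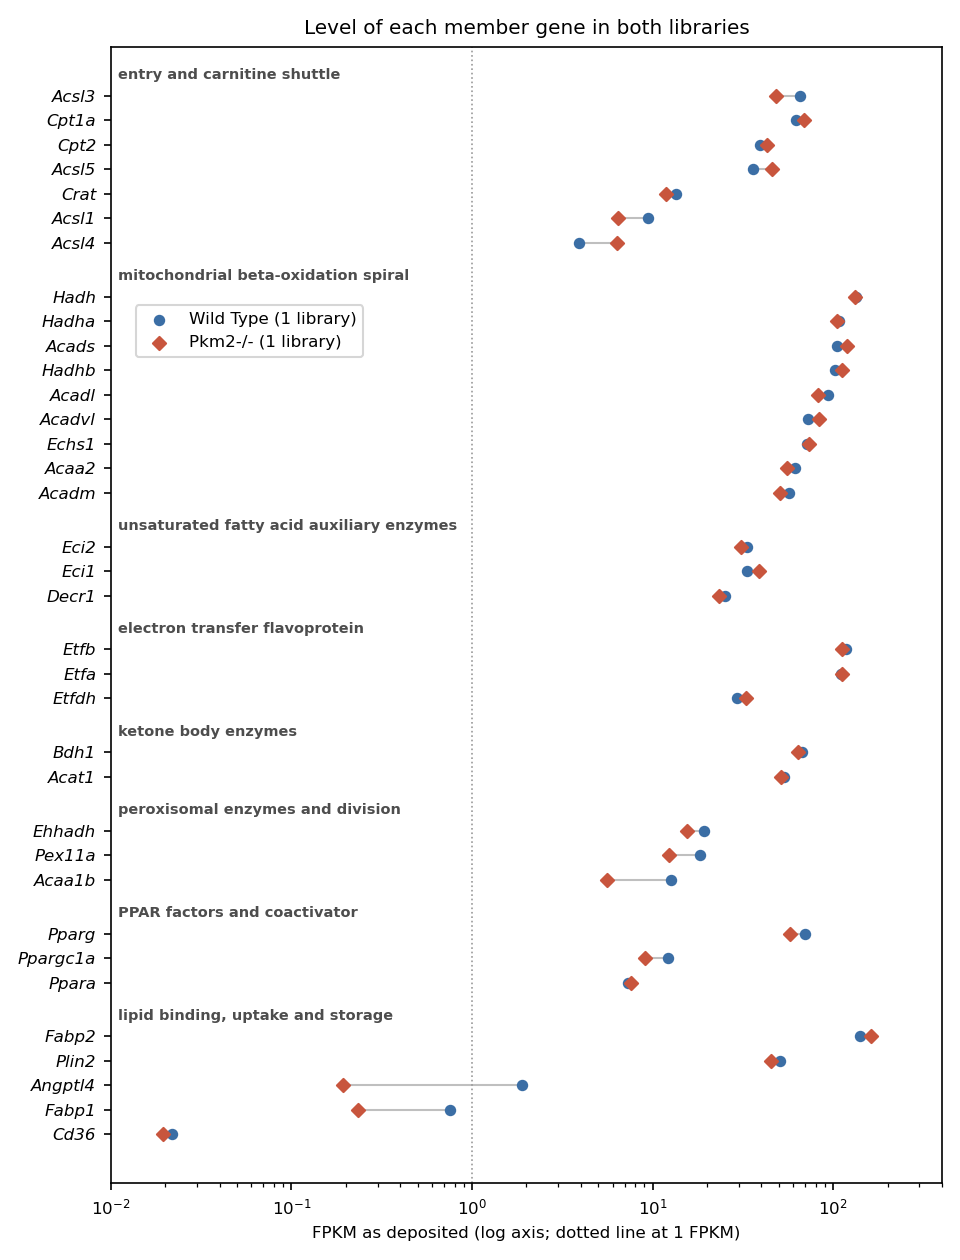
Level of the 35 members, grouped by role, in FPKM on a log axis, with circles for the Wild Type and diamonds for the Pkm2-/- library (1 library each, no error bars). The symbols of the spiral genes nearly coincide between 50.9 and 134 FPKM, whereas those of Acaa1b (12.6 and 5.62 FPKM) and Angptl4 (1.89 and 0.194 FPKM) lie apart.

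Fatty acid activation and import were covered by 7 members, all within 1.5-fold on the log2 scale used for counting. The acyl-CoA synthetases differed in direction among themselves. Acsl3 was the most abundant of them at 65.4 FPKM in the Wild Type and 48.4 FPKM in the Pkm2-/- library, 1.35-fold lower (1.297 to 1.41). Acsl5, the synthetase best known from intestinal epithelium, stood at 35.8 and 45.7 FPKM in the same order, 1.28-fold higher (1.22 to 1.34). Acsl3 thus made up 57.0% of the summed FPKM of Acsl1, Acsl3, Acsl4, Acsl5 and Acsl6 in the Wild Type and 45.2% in the Pkm2-/- library, and Acsl5 made up 31.2% and 42.6%. The sum itself was 115 and 107 FPKM, so the members shifted in opposite directions while their total stayed close.

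The less abundant synthetases also diverged. Acsl1, which serves both fat storage and oxidation in other tissues, measured 9.46 FPKM in the Wild Type and 6.44 FPKM in the Pkm2-/- library, 1.47-fold lower (1.34 to 1.61). Acsl4, which prefers arachidonic acid, stood at 3.92 and 6.35 FPKM, 1.62-fold higher (1.43 to 1.84), with a log2 ratio of 0.58 after the addition of 1 FPKM, just short of the step for 1.5-fold. It had the highest ratio of all measured members. Of the carnitine shuttle, the members Cpt1a, Cpt2 and Crat moved little by comparison. The carrier gene Slc25a20, no member of the set, differed more and is given below. Cpt1a, the outer-membrane carnitine palmitoyltransferase that controls entry, measured 62.5 FPKM in the Wild Type and 68.9 FPKM in the Pkm2-/- library. Its inner-membrane partner Cpt2 stood at 39.4 and 43.0 FPKM. Crat, the carnitine acetyltransferase for short chains, stood at 13.5 and 11.9 FPKM. Cpt1a and Cpt2 were thus 1.10-fold and 1.09-fold higher in the Pkm2-/- library, with intervals that excluded equal levels. These small differences depend on the scaling. Their log2 ratios, 0.14 and 0.13, fell to 0.06 and 0.04 with equal library medians.

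All 9 members of the mitochondrial spiral lay within 1.25-fold, with log2 ratios from -0.18 to 0.20 and a median of -0.03. Their summed level was 804 FPKM in the Wild Type and 812 FPKM in the Pkm2-/- library. The acyl-CoA dehydrogenases, which open each cycle, did not share a direction by chain length. Acadvl, for very long chains, measured 72.5 FPKM in the Wild Type and 83.2 FPKM in the Pkm2-/- library, and Acads, for short chains such as butyrate, at 105 and 119 FPKM. Acadl, for long chains, stood at 93.4 and 82.2 FPKM, and Acadm, for medium chains, at 56.7 and 50.9 FPKM. The outer members of the chain-length series were therefore slightly higher and the middle ones slightly lower in the Pkm2-/- library. Acads had the largest share of the 4 dehydrogenases in both libraries, 32.0% and 35.6%.

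The later steps of the spiral were flat as well. Hadha and Hadhb encode the subunits of the mitochondrial trifunctional protein, which carries out the last steps for long chains. Hadha measured 108 FPKM in the Wild Type and 104 FPKM in the Pkm2-/- library, and Hadhb at 102 and 112 FPKM, so that the ratio of Hadha to Hadhb was 1.05 and 0.928. Hadh, the dehydrogenase for shorter chains, was the most abundant spiral gene at 134 and 131 FPKM. The hydratase gene Echs1 stood at 71.3 and 73.6 FPKM and the thiolase gene Acaa2 at 61.1 and 55.2 FPKM. The log2 ratios of Hadha, Hadh and Echs1 were -0.05, -0.03 and 0.05. Those of Hadha and Hadh turned positive with sums made equal without mitochondrial genes, and that of Echs1 turned negative with equal library medians and with equal upper quartiles. The Acadvl value is uncertain, since 32.7% of its 31-base words occur in other genes, mainly the overlapping Dvl2.

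Hadha and Hadhb lie head to head on chromosome 5. In GENCODE M21 on GRCm38, Hadha occupies 30118304 to 30155162 on the minus strand and Hadhb 30155248 to 30184593 on the plus strand. The 85 bases between their GENCODE starts are shown because both subunit genes are read outward from them (GRCm38.p6, chr5:30155163-30155247, plus strand, 5′ to 3′). The bases were taken from the RefSeq window of Hadhb. The RefSeq window of Hadha, 30154931 to 30155230, places its start inside the GENCODE gene, so the RefSeq starts lie further apart. The stretch has 69.4% G and C and 9 CpG dinucleotides, and the paired genes differ by under 1.25-fold.

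Hadha-Hadhb: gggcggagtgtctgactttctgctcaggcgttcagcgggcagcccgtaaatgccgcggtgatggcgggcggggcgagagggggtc

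Auxiliary enzymes, electron transfer and ketone body enzymes were close in both libraries. The isomerase genes Eci1 and Eci2 and the reductase gene Decr1 serve the breakdown of unsaturated chains. Eci1 measured 33.1 FPKM in the Wild Type and 39.0 FPKM in the Pkm2-/- library, Eci2 at 33.3 and 30.97 FPKM, and Decr1 at 25.2 and 23.2 FPKM. The electron transfer flavoprotein subunit genes Etfa and Etfb were nearly equal to each other. Etfa was at 111 FPKM (Wild Type) and 112 FPKM (Pkm2-/-), and Etfb at 117 and 112 FPKM, with 68.0% of the 31-base words of Etfb shared with the gene model Gm45233. Etfdh, which passes their electrons to ubiquinone, stood lower than both subunits at 29.3 and 33.0 FPKM. Acat1, the mitochondrial acetoacetyl-CoA thiolase, stood at 53.4 and 51.5 FPKM. Bdh1, which interconverts acetoacetate and beta-hydroxybutyrate, stood at 67.2 and 63.6 FPKM. Together with the spiral these genes make 17 members, none of them 1.25-fold apart, with a median log2 ratio of -0.05. The small positive ratio of Etfa, 0.01, turned negative with equal library medians and with equal upper quartiles.

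**Figure D2:**
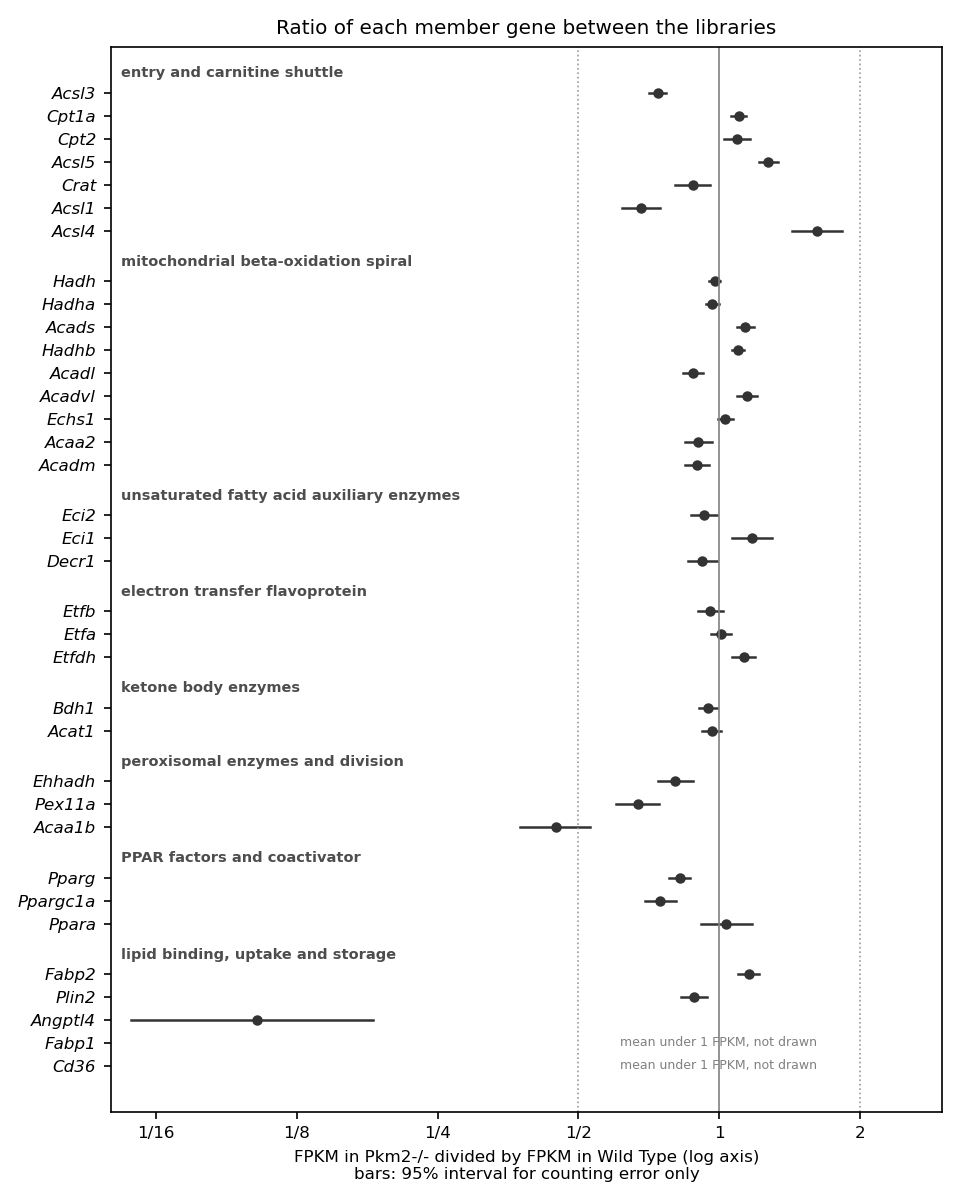
FPKM in the Pkm2-/- library divided by FPKM in the Wild Type library for each member with a mean of at least 1 FPKM, on a log axis, with bars for the 95% interval of counting error and dotted lines at 2-fold. The spiral members cluster around 1, all 3 peroxisomal members lie left of it, and Angptl4, with 14 fragments in the Pkm2-/- library, has the widest bar.

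The 3 peroxisomal members all stood lower in the Pkm2-/- library, with a median log2 ratio of -0.54 and a summed level of 50.1 FPKM in the Wild Type and 33.4 FPKM in the Pkm2-/- library. Acaa1b (chromosome 9, 119148023 to 119157093, minus strand), a peroxisomal thiolase, stood at 12.6 and 5.62 FPKM, 2.24-fold lower (1.89 to 2.66). Its neighbour in sequence, Acaa1a, holds 45.7% of the 31-base words of its longest transcript, so the split of fragments between them is uncertain. Their sum was 84.6 FPKM in the Wild Type and 59.0 FPKM in the Pkm2-/- library, 1.43-fold lower. It still depends in part on the split, since the longest transcripts are 3668 bases for Acaa1a and 1689 for Acaa1b. The log2 ratio of Acaa1b, -1.03, passed 2-fold by little and missed it with a pseudocount of 5 FPKM (-0.73) and after rescaling to equal sums without mitochondrial genes (-0.99).

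Pex11a (chromosome 7, 79735957 to 79743131, minus strand), which drives the elongation and division of peroxisomes, measured 18.3 FPKM in the Wild Type and 12.3 FPKM in the Pkm2-/- library. It was 1.49-fold lower (1.34 to 1.66). Ehhadh, the bifunctional enzyme of peroxisomal oxidation, stood at 19.3 and 15.5 FPKM, 1.24-fold lower (1.14 to 1.35). Acaa1b, Pex11a and Ehhadh thus lay on the same side under every scaling and pseudocount tried.

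The upstream sequences of Acaa1b and Pex11a are shown because they are the lower peroxisomal members with the largest ratios. A promoter window of 300 bases, 250 before and 50 after the transcription start, was found in RefSeq (GRCm38.p6) for 30 members, and the bases before the start are printed 5′ to 3′ on the gene's strand, chr9:119157094-119157343 (minus) and chr7:79743132-79743381 (minus). The windows were searched on both strands for the nuclear receptor half-site AGGTCA and for the direct repeat named DR1, here AGGNCA followed by any base and AGGNCA again, the arrangement that PPAR and RXR pairs bind. A match of the repeat can contain a match of the half-site. Neither was found in these windows. The Acaa1b window has 43.7% G and C and 4 CpG dinucleotides, and the Pex11a window has 57.3% and 13, against a median of 60.7% G and C over the member windows and 52.7% over all 32851 windows.

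Acaa1b: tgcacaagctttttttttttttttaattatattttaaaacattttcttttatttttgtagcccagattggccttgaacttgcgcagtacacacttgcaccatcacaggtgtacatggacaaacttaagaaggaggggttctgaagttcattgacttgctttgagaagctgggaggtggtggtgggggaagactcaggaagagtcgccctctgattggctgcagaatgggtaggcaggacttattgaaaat

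Pex11a: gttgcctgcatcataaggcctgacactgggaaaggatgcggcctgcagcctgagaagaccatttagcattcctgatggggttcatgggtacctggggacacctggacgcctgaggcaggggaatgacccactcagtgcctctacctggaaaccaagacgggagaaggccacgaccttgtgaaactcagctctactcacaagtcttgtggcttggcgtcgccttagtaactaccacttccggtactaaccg

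Among all members with a window, 8 of 30 (26.7%) held AGGTCA, against 18.1% of all genes. These were Acadm, Acadvl, Cd36, Cpt1a, Echs1, Fabp1, Plin2 and Pparg. The direct repeat was found in Fabp1 alone of the 30, against 0.451% of all genes. Of the 8 genes with a half-site, the 7 others than Fabp1 differed by under 1.25-fold or, for Cd36, lay under 1 FPKM.

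The PPAR factors themselves differed less than Acaa1b or Angptl4. Pparg (chromosome 6, 115360951 to 115490399, plus strand), the isotype known for its high level in colon epithelium, measured 69.6 FPKM in the Wild Type and 57.4 FPKM in the Pkm2-/- library, 1.21-fold lower (1.15 to 1.28). Ppara, the main regulator of fatty acid oxidation in liver, was low and close in both, at 7.34 and 7.62 FPKM, and its counting interval included equal levels. Its small positive log2 ratio, 0.05, turned negative with equal library medians and with equal upper quartiles. Ppard, the remaining isotype and no member of the set, stood at 72.0 and 70.5 FPKM. By summed FPKM of the 3 isotypes, Ppard and Pparg made up 48.3% and 46.7% in the Wild Type and 52.0% and 42.3% in the Pkm2-/- library, and Ppara 4.93% and 5.62%.

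The coactivators went opposite ways. Ppargc1a, which encodes the coactivator PGC-1alpha of mitochondrial and oxidation genes, measured 12.1 FPKM in the Wild Type and 9.07 FPKM in the Pkm2-/- library, 1.33-fold lower (1.24 to 1.44). Its relative Ppargc1b, from the list of other regulators, stood at 8.31 and 13.4 FPKM, 1.61-fold higher (1.45 to 1.78). The ratio of Ppargc1a to Ppargc1b was 1.46 in the Wild Type and 0.679 in the Pkm2-/- library, so the more abundant of the pair changed between the libraries.

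Genes of lipid binding, uptake and storage ranged more widely in level than any other role. Fabp2, the intestinal fatty acid binding protein, was the most abundant of all 35 members in both libraries, at 140 FPKM in the Wild Type and 162 FPKM in the Pkm2-/- library, 1.16-fold higher (1.10 to 1.22). Plin2, a coat protein of lipid droplets, stood at 50.8 and 45.0 FPKM. Angptl4 (chromosome 17, 33773750 to 33781830, minus strand), which inhibits lipoprotein lipase, stood at 1.89 and 0.194 FPKM, 9.73-fold lower (5.50 to 18.1). It rested on 121 and 14 fragments and passed the level for counting only through the Wild Type library. Its log2 ratio was -1.27 with 1 FPKM added and -0.41 with 5 FPKM added, and it was not counted with a minimum mean of 5 FPKM.

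The remaining lipid members were near the limit of detection. Cd36, a fatty acid translocase that endothelial cells, adipocytes and macrophages also express, was listed at 0.0218 and 0.0194 FPKM, about 1 fragment in each library, too few for a fold. Fabp1, the liver fatty acid binding protein, measured 0.752 FPKM in the Wild Type and 0.233 FPKM in the Pkm2-/- library, about 8 and 3 fragments, and the interval of its ratio (0.711 to 17.3) included equal levels. Of the summed FPKM of Fabp1, Fabp2, Fabp5 and Fabp6, Fabp1 made up 0.489% in the Wild Type and 0.111% in the Pkm2-/- library, and Fabp2 91.0% and 76.7%.

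The upstream sequence of Fabp1 is shown because it is the one member window with the direct repeat (GRCm38.p6, RefSeq, chr6:71199629-71199826, plus strand, 5′ to 3′, up to the first annotated start). Capitals mark the match, which lies on the opposite strand, 67 bases before the RefSeq start at its far end. The match is a description of the letters and says nothing of binding in these cells, where the gene was barely listed.

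Fabp1: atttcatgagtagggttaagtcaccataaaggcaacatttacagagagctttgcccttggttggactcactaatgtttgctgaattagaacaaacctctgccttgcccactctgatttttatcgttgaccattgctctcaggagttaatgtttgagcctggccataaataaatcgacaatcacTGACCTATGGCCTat

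Lists of other genes of the pathway, none of them members, were set beside the set. For comparison, 1.90% of all genes were at least 2-fold lower, 5.29% at least 1.5-fold lower and 4.46% at least 1.5-fold higher. A ratio below 0 was found for 41.2% of all genes and a ratio above 0 for 58.8%. Of 24 other mitochondrial fatty acid and ketone enzymes, 20 were measured. Their median log2 ratio was -0.20, with 1 gene at least 2-fold lower, 3 at least 1.5-fold lower and 0 at least 1.5-fold higher. Slc25a20, the carrier that brings acylcarnitines through the inner membrane between Cpt1a and Cpt2, measured 77.1 FPKM in the Wild Type and 41.1 FPKM in the Pkm2-/- library, 1.88-fold lower (1.79 to 1.97). Acad11, an acyl-CoA dehydrogenase, stood at 26.1 and 14.8 FPKM, and Pdk4, a kinase that restrains pyruvate dehydrogenase, at 6.29 and 2.03 FPKM. Acsm3, a medium-chain acyl-CoA synthetase of the mitochondrial matrix, stood at 42.3 and 28.8 FPKM and shares 38.5% of its 31-base words with the overlapping gene Eri2, so its value is uncertain.

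Of 23 other peroxisomal oxidation enzymes, 19 were measured, and 15 of them had a ratio below 0, with a median of -0.14 and 0 genes at least 1.5-fold higher. Acox2, for branched chains and bile acid precursors, measured 1.49 FPKM in the Wild Type and 0.601 FPKM in the Pkm2-/- library. All 17 peroxisome biogenesis genes were measured, none was 1.5-fold apart, and their median of 0.04 was close to that of all genes.

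Of the 18 other PPAR target genes, 9 were measured, with a median of -0.89. The list holds no member, although PPAR factors raise transcription of many members, so it does not stand for all PPAR targets. At least 2-fold lower were 4 of the 9, 5 were past 1.5-fold in that direction, and 0 were past it in the other. The shares of all genes were 1.90%, 5.29% and 4.46%. The count at 2-fold was 0 of 9 with a pseudocount of 5 FPKM and 1 of 5 with a minimum mean of 5 FPKM. Vnn1, a pantetheinase, measured 6.78 FPKM in the Wild Type and 1.83 FPKM in the Pkm2-/- library, 3.71-fold lower (2.95 to 4.72). Cidec, a lipid droplet protein, stood at 5.83 and 1.94 FPKM, 3.00-fold lower (2.27 to 3.98). Pdk4 and Slc25a20, given above, belong to this list too. Lpl, at 6.15 and 8.01 FPKM, and Acot1, at 3.35 and 4.23 FPKM, had ratios above 0, with 22.3% of the words of Acot1 shared with other genes, mainly Acot2. Hilpda, also on this list, stood at 9.09 and 8.13 FPKM, and its counting interval included equal levels. The list was chosen with earlier results of these data known, and its median was -0.14 without the filter on low genes and also -0.14 with the minimum mean raised to 5 FPKM. Under both settings it was no longer the lowest of the 6 lists, since the other mitochondrial enzymes had -0.17 and -0.165. With the raised minimum mean, the other genes of lipid uptake, binding and storage were lowest, at -0.34.

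Other PPAR partners and regulators lay near all genes, with a median of 0.08 over 20 measured genes, 15 of them above 0, or 10 with equal library medians and with equal upper quartiles. Ppargc1b was the 1 gene at least 1.5-fold higher and Creb3l3, a liver and intestine transcription factor of lipid metabolism, the 1 at least 1.5-fold lower, at 1.83 FPKM in the Wild Type and 0.873 FPKM in the Pkm2-/- library. Creb3l3 and Acox2 passed the minimum mean through the Wild Type library alone, and Creb3l3 was not counted with a pseudocount or a minimum mean of 5 FPKM or with sums made equal without mitochondrial genes. Of 17 measured genes of lipid uptake, binding and storage outside the set, 5 were at least 1.5-fold lower and 1 at least 1.5-fold higher. The lower ones were the lipoprotein gene Apob (22.2 and 8.20 FPKM), the lysosomal lipase gene Lipa (11.3 and 5.32 FPKM), the monoglyceride lipase gene Mgll (20.4 and 10.2 FPKM), the triglyceride synthesis gene Dgat2 (29.4 and 15.7 FPKM) and Cideb (38.1 and 20.8 FPKM), in which 65.8% of the 31-base words are shared with Nop9. The higher one was Fabp6, the ileal bile acid binding protein, at 7.64 and 41.6 FPKM, 5.45-fold higher (4.23 to 7.10).

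**Figure D3:**
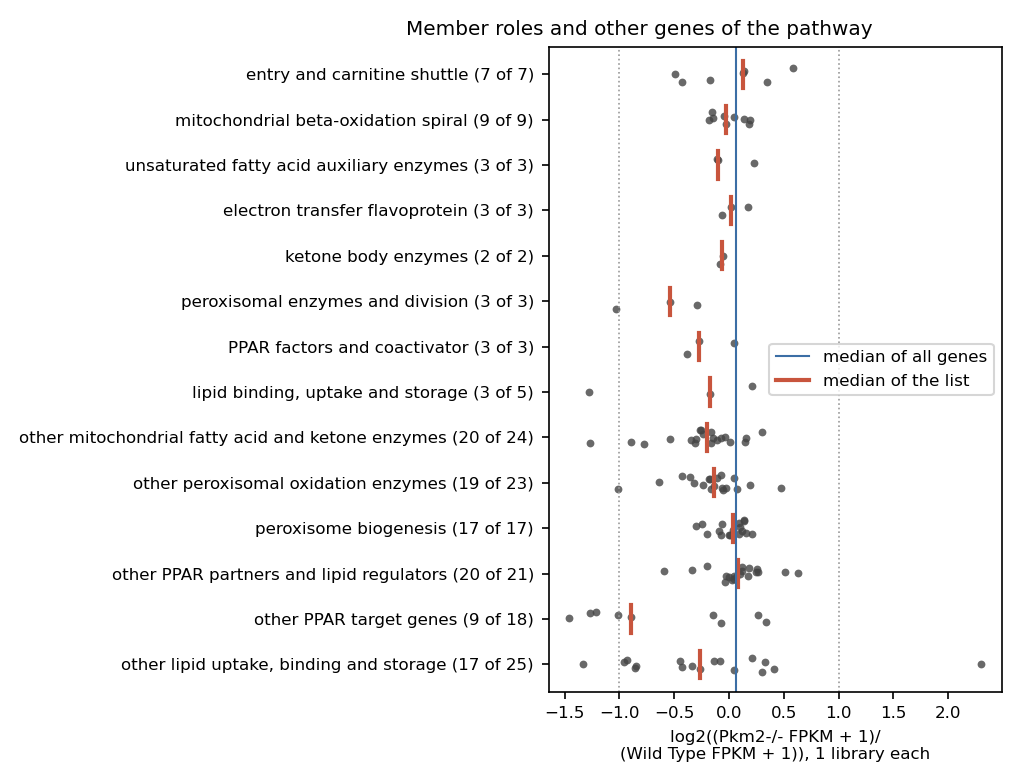
Log2 ratio (Pkm2-/- over Wild Type, 1 FPKM added, 1 library each) of genes averaging at least 1 FPKM in the 8 member roles and 6 lists of other pathway genes, with the number measured of the number listed in brackets. Red bars mark list medians, the blue line marks the median of all genes (0.06) and dotted lines mark 2-fold. The spiral and peroxisome biogenesis lie near the blue line, and the PPAR target genes spread from -1.46 to 0.33, with a median of -0.89.

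Markers of the cells in the fraction were read beside these values. All 10 epithelial markers were present, led by Krt8, and summed to 6526 FPKM in the Wild Type and 7483 FPKM in the Pkm2-/- library. Markers of differentiated colonocytes were lower beside the lower lipid genes, with 10 of 13 at least 1.5-fold lower, a median of -0.97 and sums of 8095 and 4476 FPKM. Car1 was the most abundant of them. All 11 measured markers of proliferating crypt cells had ratios above 0, with sums of 180.3 and 290.4 FPKM, and Olfm4 was listed at 0 in the Pkm2-/- library. The part of differentiation state in the lower peroxisomal and PPAR target values was not tested.

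Marker lists of other cell types summed to far less than the epithelial list. Of 10 adipocyte markers, Lep, Retn, Cfd, Plin1, Fabp4 and Adrb3 were listed at 0 in both libraries and Adipoq in the Pkm2-/- library, and the list summed to 9.75 and 6.53 FPKM, mainly from Cidec and Lipe. Endothelial markers summed to 2.03 and 1.56 FPKM, with Tie1 and Gpihbp1 at 0 in both, Cdh5 at 0 in the Wild Type and Emcn and Cldn5 at 0 in the Pkm2-/- library. A value of 0 is only the lack of an entry and need not mean no expression, since mt-Co1, which nearly every cell uses, is listed in neither file. T cell markers summed to 27.1 FPKM in the Wild Type and 101.9 FPKM in the Pkm2-/- library, led by Gzma in the latter, with 9 of 9 measured genes at least 1.5-fold higher. Macrophage and dendritic cell markers summed to 11.6 and 22.4 FPKM, led by Laptm5 (3.29 and 9.84 FPKM), with Cd163 at 0 in the Pkm2-/- library. Of the 6 measured genes in that list, 4 had ratios above 0. The 2 below 0 were Cd68 (1.63 and 1.56 FPKM) and Lyz2 (2.97 and 2.74 FPKM). The part of these cell types in the member values was not tested.

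The last lists were small or mixed. Small intestine enterocyte markers summed to 89.4 and 96.1 FPKM, led by Slc5a1, with 3 of 6 measured genes at least 1.5-fold lower, 1 at least 1.5-fold higher, and Treh at 0 in the Pkm2-/- library. The higher one was Fabp6 (7.64 and 41.6 FPKM). The other 5 measured genes had ratios below 0, and the list median was -0.52. Hepatocyte markers summed to 12.0 and 6.15 FPKM, led in the Wild Type by Ttr. Fibroblast markers summed to 5.42 and 4.19 FPKM, with Lum at 0 in both, Dpt at 0 in the Wild Type and Pdgfra at 0 in the Pkm2-/- library. Muscle markers summed to 2.08 and 2.48 FPKM, led by Tagln, with Actg2 at 0 in both, Ckm at 0 in the Wild Type and Des and Cnn1 at 0 in the Pkm2-/- library.

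**Figure D4:**
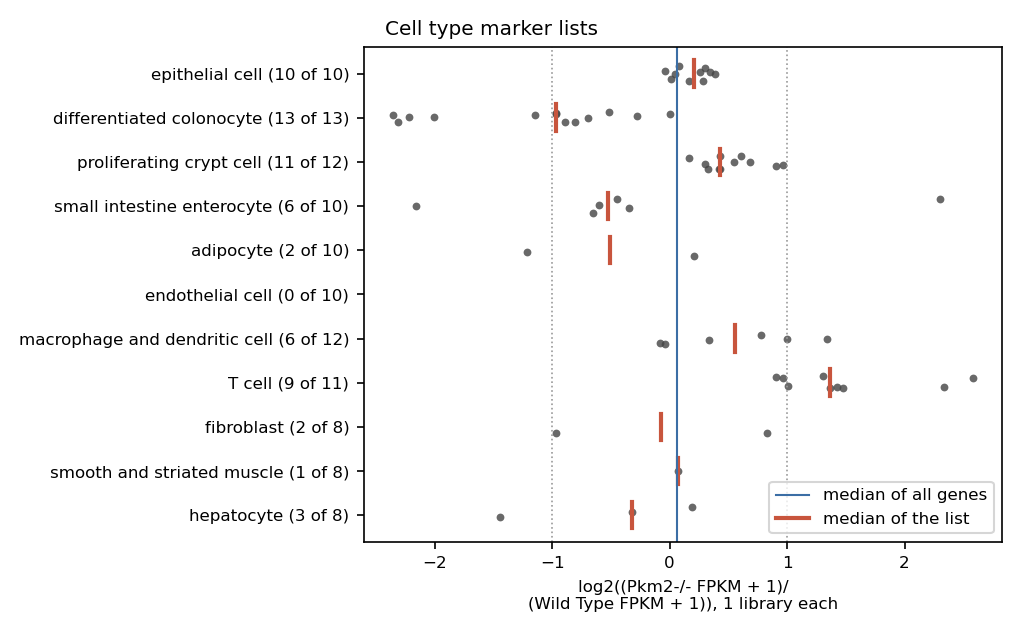
Log2 ratio (Pkm2-/- over Wild Type, 1 FPKM added, 1 library each) of cell type marker genes averaging at least 1 FPKM, with the number measured of the number listed in brackets. Red bars mark list medians, the blue line marks the median of all genes and dotted lines mark 2-fold. Differentiated colonocyte markers lie left, with a median of -0.97, and T cell markers right, with a median of 1.37.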

How the data were processed

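Messenger RNA of colon epithelial cells was sequenced as 1 library per genotype. The authors deposited 1 FPKM value per Ensembl gene with a symbol and a locus, without a header, and the unit was taken from the tools in the submitters' processing notes (Bowtie2 2.2.9, TopHat2 2.1.1, Cufflinks 2.2.1, Cuffdiff 1.3.0 and 2.2.1) and from the values. The notes name the build mm8, but GENCODE M21 holds 99.4% of the 22384 gene IDs, and the listed locus overlaps the GRCm38 gene for 99.96% of those held. GRCm38 was used for coordinates. Rows sharing a symbol were summed (34 symbols, no member), and a gene without an entry was set to 0.

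Fragments were estimated from the lowest FPKM values of genes with 1 transcript over 1.5 kb, which cluster at the worth of 1 fragment, and applied to the longest transcript of each gene. Genes that share 31-base words with other genes on either strand are named as uncertain where the share was over 20%. The 4 members over this limit were Acaa1b, Acadvl, Etfb and Eci2 (22.4%). The sources used here do not say whether counting used strand. The interval calculation was tested on simulated data drawn with the same fragment step and transcript lengths that it uses. That test therefore cannot check those inputs or the effect of shared words. Alternatives were 2 pseudocounts, 2 filters, 3 scalings and another transcript length.

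Members and lists were chosen with earlier results of these data known. All members are named. Of the other lists, Pdk4, Slc25a20, Ppard and Acsm3 are named, with up to 6 genes per list at least 1.5-fold apart, and of the markers those at 0 and the most abundant. Some genes that this rule covers are not reported here, though counts and medians of lists include them. Genes outside this rule (Lpl, Acot1, Hilpda, Acaa1a, Acsl6, Fabp5, Lipe, Cd68, Lyz2) were chosen after their values were seen. Python 3.11.15, pandas 2.3.3 and SciPy 1.17.1 were used.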

Additional observations from a re-analysis of the deposited data

How the results depend on the processing

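With 1 library per genotype no library could be left out, and depth limits what can be said of members under about 1 FPKM. No paired analysis was possible because each genotype has 1 library and no label ties them. Counts at 2-fold followed the pseudocount and the filter. Over all genes, 272 were higher and 361 lower with a pseudocount of 0.1 FPKM, 85 and 124 with 5 FPKM, and 111 and 154 with a minimum mean of 5 FPKM. Members at least 2-fold lower numbered 0 with a pseudocount of 5 FPKM, 1 with a minimum mean of 5 FPKM and 1 with sums made equal without mitochondrial genes. Members at least 1.5-fold lower numbered 1 with a pseudocount of 5 FPKM and 1 with a minimum mean of 5 FPKM, which leaves out Angptl4, and 3 with equal library medians and with equal upper quartiles, where Pex11a joins (-0.62 and -0.60). Members at least 1.5-fold higher numbered 1, with a pseudocount of 0.1 FPKM and with sums made equal without mitochondrial genes. The spiral median was -0.11 with equal library medians and -0.094 with equal upper quartiles, and turned to 0.02 with sums made equal without mitochondrial genes. These scalings moved the median of all genes to -0.01 and 0.00, and the third moved it to 0.10. The member median stayed below that of all genes in each setting, from -0.15 to -0.01. The log2 ratio of 5 members changed sign under a scaling, namely Hadha, Hadh, Echs1, Etfa and Ppara, none counted at 2-fold. The counting interval excluded equal levels for 27 of 33 members with the longest transcript and for 21 with the median transcript length.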
